A study of Homo sapiens with 2 samples.

Results

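The genes described here code for proteins that write, keep or remove methyl groups on cytosine, or for their partners. The data are the peaks of a ChIP for V5-tagged TET1 found in and around these genes. The 10 genes were TET1, TET2, TET3, CXXC4 and TDG on the removing side and DNMT1, DNMT3A, DNMT3B, DNMT3L and UHRF1 on the writing side. The sides are groups for counting, and CXXC4, whose protein binds TET2, is counted with the removing genes without being such an enzyme. A peak was taken when it overlapped the hg19 span of 1 of these genes, given in whole kb and widened by 20 kb on each side. This choice found 55 of the 46208 peaks in the list, 15 at the 5 removing genes and 40 at the 5 writing genes. The widened spans did not overlap, so no peak counted for more than 1 gene.

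The peaks came from a V5 ChIP library of cardiac progenitors, set against an input library of the same cell stage, with 1 library in each group and no replicates. The cells were made from H1, a long established line of human embryonic stem cells, edited so that TET1 made from its own locus bears a V5 tag. The antibody reads the tag and not TET1 itself. Both groups were taken on day 7, after the WNT activator CHIR99021 (6 µM, to day 2) and the WNT inhibitor IWP2 (5 µM, day 3 to day 5). The labels give the genotype of both libraries as wild type, although the series describes a tagged line, and they list no V5 ChIP of untagged cells, so TET1 binding and other targets of the antibody cannot be told apart. The list holds positions and scores of peaks and no expression values, so whether the cells expressed markers of cardiac progenitors could not be checked in it.

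Methyl groups at CpG dinucleotides are set on unmethylated DNA mainly by DNMT3A and DNMT3B, for which DNMT3L is a partner without catalytic activity, and are copied after replication by DNMT1, which UHRF1 guides to hemimethylated sites. TET1, TET2 and TET3 oxidise 5-methylcytosine, and TDG cuts out the further oxidised bases so that repair can restore cytosine. TET1 and TET3 carry a CXXC zinc finger that binds CpG-rich DNA. TET2 has none, and CXXC4 (also IDAX), a neighbouring gene, codes for a CXXC protein that binds TET2.

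The peaks at the starts of these genes can be set beside promoter sequence. The windows printed here come from the first and the internal start region of the 3 genes for which RefSeq lists starts far apart. Also printed is that of TDG, whose 5′ peak scored lowest among the genes with a window set against a peak. Where a region lists several starts, the window with the most CpG is printed. This holds for the internal region of TET1 (11 CpG, against 6). It also holds for the first region of DNMT3A (46, against 18 and 26) and its internal region (28, against 26 and 18). The windows run from 250 bases before to 50 bases after a start, 5′ to 3′ on the strand of the gene, in GRCh38.p14. Capitals mark CpG dinucleotides.
TET1, first start: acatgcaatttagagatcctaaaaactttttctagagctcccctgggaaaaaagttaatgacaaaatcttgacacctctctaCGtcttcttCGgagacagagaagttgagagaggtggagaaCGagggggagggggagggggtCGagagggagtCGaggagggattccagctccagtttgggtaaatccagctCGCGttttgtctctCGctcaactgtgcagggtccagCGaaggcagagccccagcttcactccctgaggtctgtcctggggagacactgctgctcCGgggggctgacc
TET1, internal start: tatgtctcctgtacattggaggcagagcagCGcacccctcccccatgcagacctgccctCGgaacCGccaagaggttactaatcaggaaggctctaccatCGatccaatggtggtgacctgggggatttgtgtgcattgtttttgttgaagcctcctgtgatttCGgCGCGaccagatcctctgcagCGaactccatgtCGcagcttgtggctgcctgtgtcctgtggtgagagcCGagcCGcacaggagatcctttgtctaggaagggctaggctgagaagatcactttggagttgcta
TET3, first start: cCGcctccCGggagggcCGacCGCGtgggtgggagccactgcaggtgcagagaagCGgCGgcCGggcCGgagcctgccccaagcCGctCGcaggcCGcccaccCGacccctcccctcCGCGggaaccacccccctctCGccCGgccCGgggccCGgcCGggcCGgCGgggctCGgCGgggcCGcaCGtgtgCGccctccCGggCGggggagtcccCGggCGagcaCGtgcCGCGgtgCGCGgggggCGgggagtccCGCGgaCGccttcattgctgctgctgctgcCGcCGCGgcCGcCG
TET3, internal start: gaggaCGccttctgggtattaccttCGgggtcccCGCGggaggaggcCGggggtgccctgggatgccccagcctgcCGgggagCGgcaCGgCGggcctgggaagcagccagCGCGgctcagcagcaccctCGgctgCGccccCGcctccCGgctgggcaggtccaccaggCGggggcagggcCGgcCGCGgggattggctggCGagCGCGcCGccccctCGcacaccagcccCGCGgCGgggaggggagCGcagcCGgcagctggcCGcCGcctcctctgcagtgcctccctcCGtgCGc
DNMT3A, first start region: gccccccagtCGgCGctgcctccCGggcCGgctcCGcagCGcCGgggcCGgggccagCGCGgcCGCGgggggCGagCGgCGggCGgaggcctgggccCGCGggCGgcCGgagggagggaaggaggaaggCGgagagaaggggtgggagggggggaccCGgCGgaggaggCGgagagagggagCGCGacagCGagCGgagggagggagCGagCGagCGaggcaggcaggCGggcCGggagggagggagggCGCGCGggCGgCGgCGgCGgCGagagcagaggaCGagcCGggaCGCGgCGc
DNMT3A, internal start region: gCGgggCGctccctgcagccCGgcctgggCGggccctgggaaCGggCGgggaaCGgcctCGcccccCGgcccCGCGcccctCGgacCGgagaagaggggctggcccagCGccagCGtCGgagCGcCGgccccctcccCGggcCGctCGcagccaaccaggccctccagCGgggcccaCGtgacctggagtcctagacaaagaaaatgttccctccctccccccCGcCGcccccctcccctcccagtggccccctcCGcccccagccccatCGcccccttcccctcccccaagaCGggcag
TDG, only start: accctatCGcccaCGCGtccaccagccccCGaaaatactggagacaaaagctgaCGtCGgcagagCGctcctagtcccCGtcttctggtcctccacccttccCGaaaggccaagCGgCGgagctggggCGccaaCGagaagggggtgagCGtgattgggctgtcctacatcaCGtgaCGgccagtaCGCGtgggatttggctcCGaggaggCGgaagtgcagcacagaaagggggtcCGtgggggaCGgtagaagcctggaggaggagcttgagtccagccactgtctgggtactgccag

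The score of a peak is the authors' own value. Its unit is not stated, it starts at 50, and 2030 peaks are tied at exactly 3100, while 135 carry values above it, up to 3233.06. Scores of 3100 or more are taken here as 1 class, called the ceiling, within which no order is read. The 7 such peaks at these genes all stand at exactly 3100. The number of reads behind a peak is unknown.

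All 10 genes had a peak at the 5′ end, defined as a peak within 2 kb of the edge of the span where transcription starts. Of all positions taken every 1 kb between the first and last peak of each chromosome, 8.06% lay that close to a peak, and on the 7 chromosomes of these genes 8.41% did. At the 3′ edge of the same spans 1 gene of 10, DNMT3A, had a peak that close. These shares are over genome positions, and the 5′ ends of other genes were not compared, since no hg19 annotation was used here. In 9 of the 10 genes the peak crossed the edge, reaching from 0.134 to 2.753 kb upstream and from 1.395 to 3.983 kb into the gene. The edges are known to about 1 kb. With the edges as given, in 8 of these 9 the peak reached farther into the gene than upstream. TET3 was the exception, with 2.753 kb upstream and 2.498 kb into the gene. A shift of an edge within its error could change this count.

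**Figure D1:**
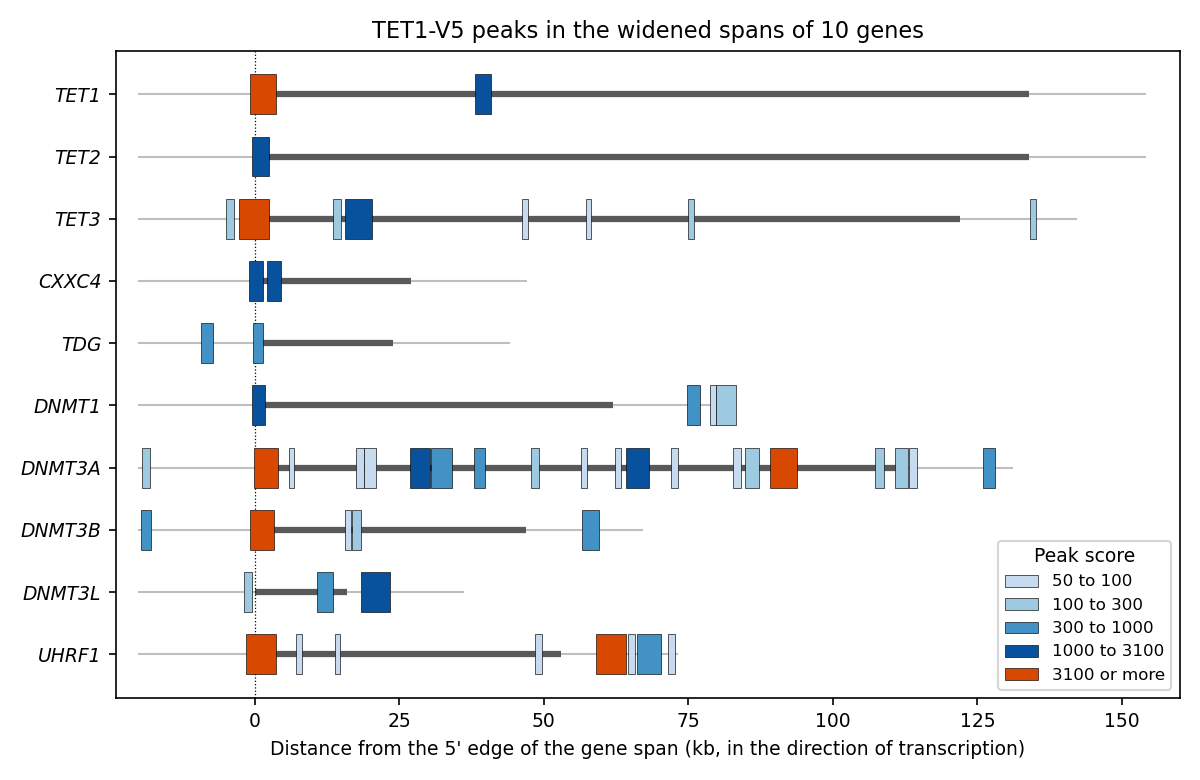
Positions of the 55 peaks at the 10 genes. The x axis is the distance in kb from the 5′ edge of each gene span, in the direction of transcription; thick grey lines are the spans, thin lines the 20 kb on each side, and boxes the peaks, drawn to width and coloured by score class. A peak stands at or next to 0 in every row, and DNMT3A has peaks along its whole length.

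Peaks at the 5′ ends carried high scores. At the ceiling were 5 of the 10 (50%, 95% Wilson interval 23.7% to 76.3%), against 4.69% of the whole list, and 8 of the 10 scored 1000 or more, against 18.6% of the list. A peak of 1000 or more lay within 2 kb of 2.18% of positions. None of the 10 scored below 100 (Wilson interval 0% to 27.8%), and 32.9% of the list did. The other 45 peaks of these genes had shares close to those of the list. Of these 45, 2 were at the ceiling (4.44%, interval 1.23% to 14.8%) and 17 scored below 100 (37.8%, interval 25.1% to 52.4%). The median width was 3507 bp at the 5′ ends, 1454 bp for the other 45 peaks and 1531 bp for the whole list. All intervals here cover counting error only. Over the 55 peaks together, 7 (12.7%, interval 6.30% to 24.0%) were at the ceiling.

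**Figure D2:**
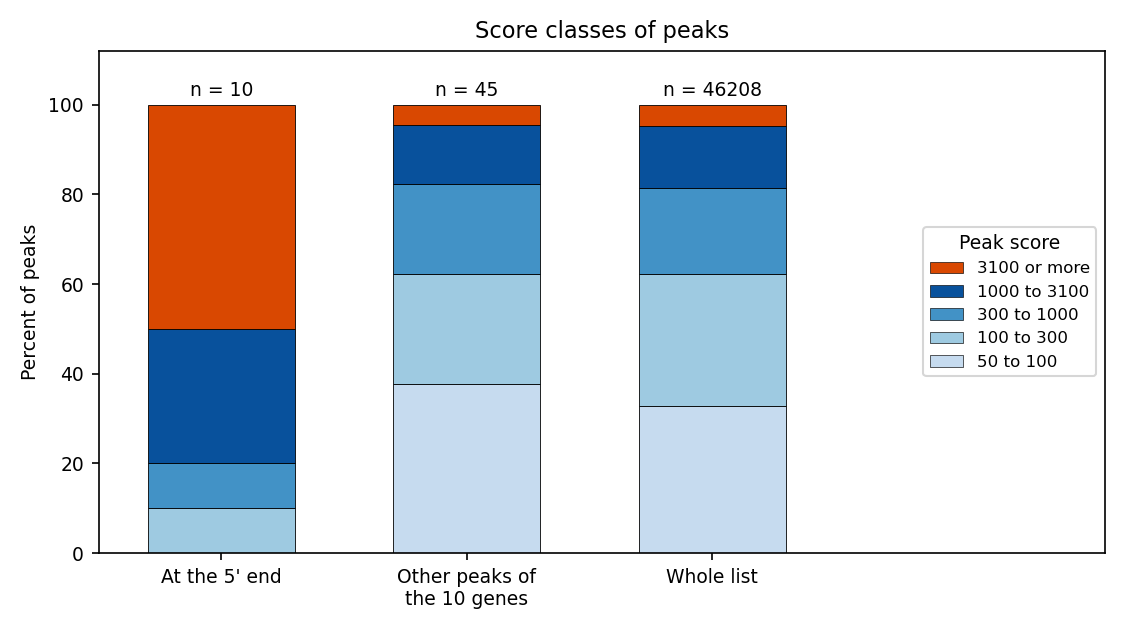
Percent of peaks in each score class, for the 10 peaks at 5′ ends, the other 45 peaks of the genes and the whole list of 46208; the classes of a bar add up to 100 percent. The ceiling class holds 5 of the 10 peaks at 5′ ends, 2 of the other 45 and 4.69% of the list.

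TET1, the gene of the precipitated protein, had 2 peaks over a span of 134 kb. The 5′ peak, chr10:70319156-70323751, was 4596 bp wide and at the ceiling. The other peak lay 38.1 to 40.9 kb into the gene (chr10:70358137-70360924), was 2788 bp wide and scored 1348.77. RefSeq lists internal starts of TET1 39.9 and 40.1 kb after the first, distances that fall inside the second peak. Such distances were measured on GRCh38.p14 and set beside distances on hg19 without moving any coordinate, so they assume an equal length of the gene in both builds. No peak lay elsewhere in the gene or in its flanks.

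TET2 had a single peak over its 134 kb and both flanks. It lay at the 5′ end, chr4:106066596-106069491, with a width of 2896 bp and a score of 2061.34. CXXC4, 651 kb away on the same chromosome, had 2 peaks next to each other. One crossed the 5′ edge (chr4:105414605-105416997, score 1839.9) and the other lay 2.17 to 4.62 kb into the gene (score 1730.3). Both were narrower than the TET2 peak, at 2393 and 2453 bp. Between the 2 genes lay 3 further peaks, with scores from 79.73 to 252.79.

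TET3 had 8 peaks. The 5′ peak, chr2:74210247-74215498, was the widest of all 55 at 5252 bp and stood at the ceiling. A second strong peak lay 15.7 to 20.2 kb into the gene, chr2:74228695-74233244, with 4550 bp and a score of 2649.67. RefSeq lists a second start of TET3 17.8 kb after the first. The remaining 6 peaks were weak and narrow, with scores from 59.1 to 231.73.

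TDG, the glycosylase gene, had 2 peaks of middling score. The 5′ peak, chr12:104358767-104360519, scored 581.36 over 1753 bp, and 73.1% of the list scored lower. A peak of 2052 bp lay 7.20 to 9.25 kb upstream and scored 663.31. UQCC6 is the next protein-coding gene on that side in the RefSeq gene order, and which gene the upstream peak belongs to was not determined.

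DNMT1, the maintenance enzyme, had 1 peak in its span of 62 kb. It covered the 5′ edge, chr19:10304284-10306416, with 2133 bp and a score of 2260.3. The other 3 peaks lay in the downstream flank, towards EIF3G, and scored 71.33, 258.69 and 539.71. UHRF1, its partner, had a ceiling peak of 5127 bp at the 5′ end (chr19:4907534-4912660) and 3 weak peaks in the gene, scoring 57.88, 74.91 and 74.92. A second ceiling peak of 5237 bp, chr19:4968058-4973294, lay in the downstream flank, on the side of KDM4B, which codes for a histone demethylase. It is counted among the 55 by position and is not shown to belong to UHRF1.

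DNMT3A, a de novo enzyme, had more peaks than any other of the 10 genes. It had 20, which is 36.4% of the 55, and 17 of them overlapped its span of 111 kb. Of these 17, 4 scored 1000 or more, 6 scored from 100 to 1000 and 7 scored below 100. The span was 32.6% covered by peaks, and the next highest of the 10 was DNMT3L at 16.4%. The longer spans of TET3, TET1 and TET2 were covered to 9.61%, 4.88% and 1.86%. Of windows of 151 kb laid end to end along chromosome 2, 0.186% held as many peaks or more (3 of 1610), and the median window held 1. The windows are not matched for genes, and the share is a description of the chromosome.

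Both start regions of DNMT3A in the RefSeq promoter table carried a ceiling peak. The 5′ peak, chr2:25562017-25566134, was 4118 bp wide. The other, chr2:25472177-25476940, was 4764 bp wide and lay 89.1 to 93.8 kb into the gene. RefSeq lists a group of internal starts of DNMT3A 90.3 to 90.5 kb after the first. A shorter form of the enzyme, DNMT3A2, is known to be made from an internal promoter and to be abundant in embryonic stem cells. Another strong site lay away from the starts in the promoter table used here, which is not complete. There, peaks from 26.9 to 30.2 kb (score 2315.83) and from 30.6 to 34.2 kb (score 856.5) lay 312 bp apart. A peak 64.2 to 68.3 kb into the gene scored 1014.14 over 4092 bp. The gaps between neighbouring DNMT3A peaks ran from 27 bp to 17962 bp, and 5 of the 19 gaps were 1 kb or less. Joined across such gaps, the 20 peaks made 15.

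DNMT3B, the other de novo enzyme, had 3 peaks in its span of 47 kb. The 5′ peak, chr20:31349121-31353362, was 4242 bp wide and at the ceiling. A pair of weak peaks lay 15.6 to 18.3 kb into the gene, with scores of 63.52 and 128.2. Stronger peaks stood in both flanks, at 858.59 on the side of COMMD7 and 999.98 on the side of MAPRE1. DNMT3L was the only 1 of the 10 whose 5′ peak stopped short of the edge. That peak lay 0.496 to 1.89 kb upstream, was 1397 bp wide and had the lowest score of the 10, 179.39. Inside DNMT3L a peak of 2632 bp scored 327.4, and the highest score, 1093.75, stood in the flank towards ICOSLG. DNMT3L was also the only 1 of the 10 genes whose 5′ peak did not hold or share the best score of the span.

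The writing genes held more peaks than the removing genes. The 5 writing genes had 81.8 peaks per Mb of widened span (exact 95% Poisson interval 58.4 to 111) and the 5 removing genes had 23.4 (13.1 to 38.6). Without DNMT3A the writing genes had 59.2 (36.1 to 91.4), an interval that overlaps that of the removing genes. DNMT1 and UHRF1 lie on chromosome 19, which held 53.4 peaks per Mb along its length. The chromosomes of the other writing genes held 12.4 to 23.2, and those of the removing genes 8.11 to 15.4. The counts include peaks in the flanks, which are not shown to belong to these genes. Of the peaks of the writing genes, 37.5% scored below 100 (Wilson interval 24.2% to 53.0%). In the removing genes 13.3% did (3.74% to 37.9%), and in the whole list 32.9%. DNMT3A held 8 and UHRF1 held 5 of the 15 such peaks of the writing genes. The median score was 206 in the writing genes, 663 in the removing genes and 172 in the list. Scores of 1000 or more were reached by 22.5% (12.3% to 37.5%) and 46.7% (24.8% to 69.9%) of the peaks of the writing and the removing genes. In the list 18.6% reached them. At the ceiling were 5 of 40 peaks of the writing genes and 2 of 15 of the removing genes, against 4.69% of the list. With 1 library and 5 genes on each side these differences were not tested.

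The 10 widened spans together held 48.7 peaks per Mb (36.7 to 63.4), against 15.4 over all chromosomes and 16.0 over the 7 chromosomes of the genes. Peaks covered 10.9% of the spans without flanks, against 3.14% of those chromosomes. DNMT3A held 45.7% of the covered bases, and without it 6.95% of the other spans was covered. The density without DNMT3A was 35.8 peaks per Mb (24.9 to 49.7). Coverage was above that of its own chromosome in 9 of the 10 genes, DNMT1 being the exception with 2.77% against 11.97% on chromosome 19, and in UHRF1 the margin was small, at 12.4%. By peaks per Mb 7 of the 10 were above their chromosome, and TET1 (11.5 against 15.4) and TET2 (5.75 against 8.11) were below it as DNMT1 was. The chromosome values are not matched for genes. The neighbourhood differed between genes, and 6 of the 10 were denser than the 500 kb on each side of their widened span. TET1 (11.5 against 13) was below its own. In the 500 kb on each side of the widened span there were 89 peaks per Mb at UHRF1, 87 at DNMT3L and 66 at DNMT1, where the genes themselves had 86.0, 53.6 and 39.2. DNMT3A had 132 (80.9 to 205) in surroundings of 22. CXXC4 had 29.9 (3.61 to 108) in surroundings of 2. The CXXC4 value rests on 2 peaks less than 1 kb apart, and with such peaks merged it was 14.9 (0.378 to 83.2), an interval that includes its surroundings, whereas DNMT3A had 99.3 (55.6 to 164) in surroundings of 19. Before merging, in no other gene did the lower bound of the interval exceed the surroundings, which are given without an interval.

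**Figure D3:**
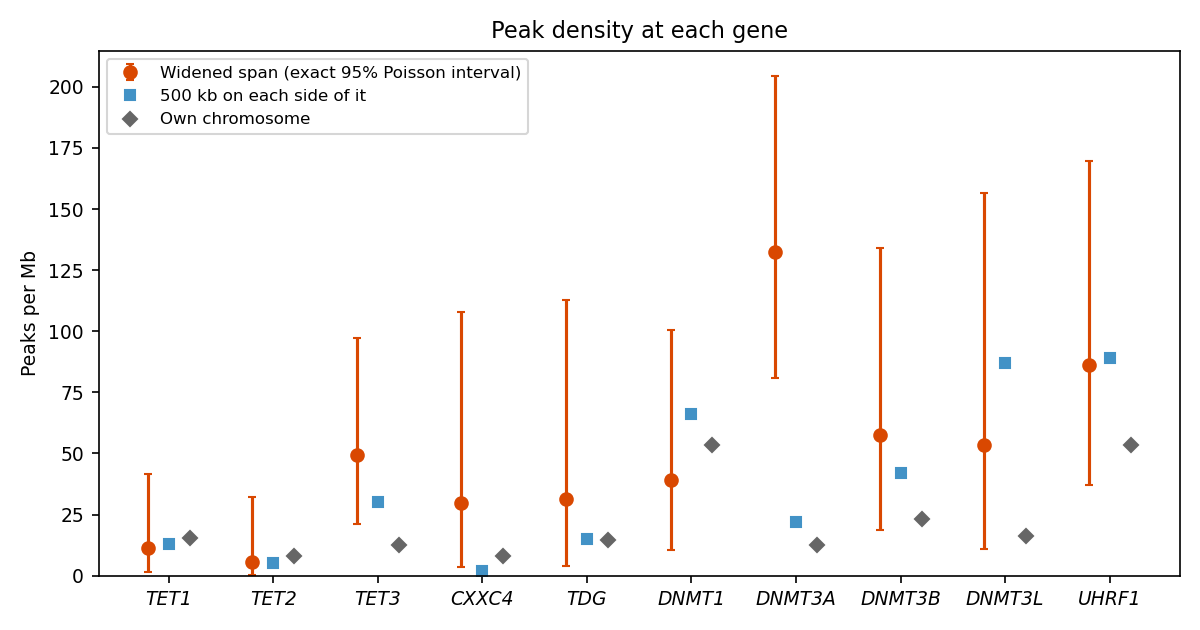
Peaks per Mb at each gene. Orange points are the widened spans, with exact 95% Poisson intervals as bars; blue squares are the 500 kb on each side and grey diamonds the chromosome from first to last peak. DNMT3A has the highest density, 132 per Mb, in surroundings of 22, whereas UHRF1 at 86.0 lies beside surroundings of 89.

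Set against equal windows of their own chromosomes, as many peaks or more were held by 6.27% of windows for TET3, 9.93% for CXXC4, 12.5% for DNMT3L, 14.4% for DNMT3B, 19.5% for TDG and 28.2% for UHRF1. For TET1 the share was 45.9%, for TET2 53.3% and for DNMT1 55.7%. In these 3 genes the peak at the 5′ end scored 2061.34 (TET2), 2260.3 (DNMT1) or stood at the ceiling (TET1).

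The promoter windows ranged widely in CpG content. RefSeq's table (GRCh38.p14) holds 20 windows for 9 of the genes, and none was used for DNMT3L. Over all 35116 windows in the table the median was 14 CpG in 300 bases (quartiles 4 and 28), and 15 of the 20 windows had more. The 20 windows are not separate units, since DNMT3A gives 6 of them and UHRF1 3, and some of these overlap. The first start of TET1, under a ceiling peak, had 10 CpG, and 56.4% of all windows have as many or more. Its internal starts had 6 and 11. TET3 had 45 CpG at its first start, a number reached by 3.48% of all windows, and 33 at its internal start. DNMT3A had 18 to 46 in its first start region and 18 to 28 in the internal one. UHRF1 had 36 to 46, DNMT1 30, TDG 22 and CXXC4 17, and the 2 windows of TET2 had 13 and 35. The only window of DNMT3B, with 3 CpG, starts inside the gene and was not set against a peak. Whether the weak peaks inside DNMT3B lie at this start was not determined, unlike for the internal starts of TET1, TET3 and DNMT3A. The TDG window, with 22 CpG, lies under a 5′ peak that scored 581.36. The first windows under 5′ peaks at the ceiling held 10 CpG in TET1, 45 in TET3, 18 to 46 in DNMT3A and 36 to 46 in UHRF1. Whether CpG content and score go together was not tested. The windows are 300 bases long and the 5′ peaks 1397 to 5252 bp wide, so CpG beyond the window was not counted.

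**Figure D4:**
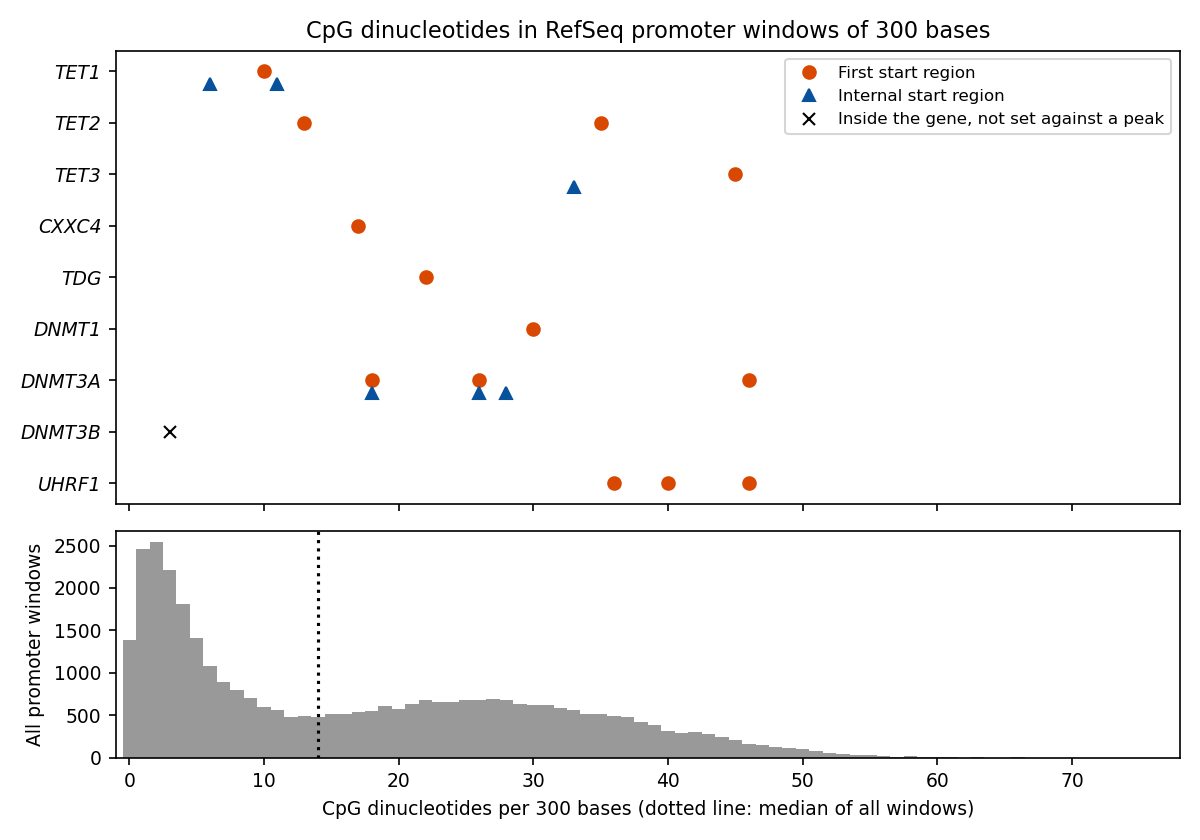
CpG dinucleotides in 300-base promoter windows. In the upper panel each mark is a RefSeq window of a gene, as circles for first or only starts, triangles for internal starts and a cross for the DNMT3B window; the lower panel counts all 35116 windows, with the median of 14 as a dotted line. The TET1 windows lie below the median and the UHRF1 windows above it.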

How the data were processed

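The submitters' processing notes name BWA (0.7.17) as aligner and hg19 as genome build. The authors deposited 1 list of peaks, called with MACS per the peak names in it, with a score for each peak whose unit is not stated; the caller's version and settings were not given in the sources used here. This deposited list sets the ChIP library against input. No read counts were analysed, so depth is unknown.

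Peaks were joined to the 10 genes by overlap of at least 1 bp. The gene spans were given with the choice of genes, in kb on hg19. Strands came from RefSeq's promoter table (GRCh38.p14) and, for DNMT3L, from textbook knowledge. Starts within 3 kb of each other were taken as 1 region. Neighbouring genes were named from the order in RefSeq's gene table of the same build. Exons and introns were not assigned. All 10 genes are named, each with its 5′ peak, its highest score and its widest peak in the span, and DNMT3A and TET3 in more detail. The genes, lists and summaries were chosen with earlier results of these data known. A list of other genes of the pathway needed hg19 annotation and is not analysed here.

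Intervals are 95% Wilson intervals for shares and exact 95% Poisson intervals for densities, and treat peaks as independent. Chromosome density was taken over the stretch that holds peaks. There is no replicate and no p-value. Tools were scipy 1.17.1, numpy 2.4.6, pandas 2.3.3 and matplotlib 3.10.9 under Python 3.11.15, and the overlap functions were checked on simulated peaks with known answers. Alternatives were stricter scores, other widening, midpoint overlap, other tolerances at the 5′ end and merging of peaks up to 1 kb apart.

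Membership ends at 20 kb from a span. Just inside were peaks 18.5 kb from UHRF1 (score 57.72) and 18.1 kb from DNMT3A (101.9); just outside were peaks 20.8 kb from DNMT3L (417.82) and 21.4 kb from UHRF1 (54.71).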

Additional observations from a re-analysis of the deposited data

How the results depend on the processing

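The 6 results were recomputed in 36 alternatives, of which 9 moved the value and 27 left it within 1.5 times, or within its counting interval. The 5′ end count was 10 genes with a tolerance of 1 kb, of 5 kb, by peak midpoint and in the upper 50% of the list by score. In the upper 25% it was 8, and TDG and DNMT3L were the genes without a peak. Score thresholds remove peaks by construction. The upper 50% left 31 peaks (27.4 per Mb, median width 2896 bp), and the upper 25% left 20 peaks (17.7 per Mb, median width 3871 bp, 35.0% at the ceiling, 6.64% of the spans covered). Widening by 50 kb gave 89 peaks, at 51.4 per Mb. Merging left 43 peaks, and the lower bound at CXXC4 then no longer exceeded its surroundings. No paired analysis was possible because neither group holds more than 1 library. Depth, repeats and mappability were not examined.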
